A study of Mus musculus with 4 samples.

Results

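Genes of the complement system were followed in whole mouse retina after the rod transcription factor gene Nrl was removed in the adult animal. The set held 9 listed genes, namely the C1q chain genes C1qa, C1qb and C1qc, the components C3, C4b and Cfb, the regulators Serping1 and Cfi, and the receptor gene C3ar1. Each was looked up by its symbol in the platform annotation, and 8 of the 9 had a probe set, the group of array probes that reads a gene, carrying that symbol alone. These 8 are part of 19421 genes with such a probe set. C3 matched no probe set and was not analysed here. Each of the 8 genes had 1 probe set, so no choice between probe sets was needed.

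Complement is a cascade of proteins that tags cells and debris for removal. In the classical pathway, C1q, built from A, B and C chains, binds a surface and C4 and then C3 are cleaved, while factor B drives the alternative pathway that amplifies the deposition of C3 fragments. Serping1 encodes the C1 inhibitor, which shuts off the proteases bound to C1q, and Cfi encodes factor I, which degrades the active fragments of C3 and C4. C3ar1 encodes the receptor for the C3a fragment. In the retina C1q is known mainly as a product of microglia, and complement is known for its part in synapse pruning and in the clearance of dying photoreceptors.

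The knockout group had the genotype Nrl(f/f);Cag-CreERT(+) and the control group Nrl(+/f);Cag-CreERT(+), so both groups carried the tamoxifen-dependent Cre and at least 1 floxed Nrl allele, and the controls kept 1 intact allele. Both groups received 4-hydroxytamoxifen in ethanol and corn oil, injected into the peritoneum every day from postnatal day 42 to 44, and retinas were taken at day 63, 19 days after the last injection. The CAG promoter is active in most cell types, so recombination was not restricted to rods. There were 2 arrays in each group, and each array held RNA of 4 retinas pooled from 2 animals. The values are pool averages of a mixed tissue, in which more cells of a type and more RNA per cell cannot be told apart.

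Levels are on the log2 scale, where a difference of 1 is a doubling. The array medians lay between 5.99 and 6.04. The photoreceptor markers used to check the tissue lay between 7.05 and 12.65. Of these the transducin genes Gnat1, of rods, and Gnat2, of cones, were called, at −3.01 and 1.10 (limma adjusted p = 0.00586 and 0.0402). The other cone markers, Opn1sw, Opn1mw, Pde6h and Arr3, were not called, at −0.52, −0.22, −0.20 and 0.26. Nrl itself had levels of 7.57 and 7.05 in the knockout pools against 8.21 and 8.13 in the controls, a change of −0.86 (limma adjusted p = 0.289). The replicate number went with the level of Xist, which silences an X chromosome in females. Xist stood at 4.07 (knockout) and 4.09 (control) in replicate 1 and at 10.66 and 10.47 in replicate 2. A difference in sex between the replicate numbers is inferred from Xist alone, and whether a pool mixed both sexes was not tested. Differences are therefore also given within each replicate number. Of the 9 called genes named in the text, Gnat1 alone was still called with the replicate number as a block (adjusted p = 0.0429); Gnat2 had 0.132.

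Of the 8 measured complement genes, 7 were higher on both knockout arrays than on both control arrays and 1, Cfb, was lower on both. By the mean of 2 arrays a group, a regulator, Serping1, had the largest difference, at 1.98-fold, and C4b, C1qc and Cfi followed at 1.79-fold, 1.77-fold and 1.75-fold. This order rests on single arrays: Cfi was first in replicate 1 (1.05 on the log2 scale) and without control replicate 2 (1.13), and C4b in replicate 2 (1.32) and without control replicate 1 (1.22). None of the 8 passed an adjusted p of 0.05 over all genes (limma, Benjamini-Hochberg), where 0.201% of all genes passed in either direction and 0.139% passed as higher in the knockout. At an unadjusted p under 0.05, 6 of the 8 were higher and 0 lower, where 3.71% of all genes were higher and 3.37% lower. The knockout arrays lay above the controls in 17% of all genes and below them in 18.4%, so an absence of overlap between 2 arrays and 2 arrays is common. The median change of the 8 genes was 0.68, against −0.0026 over all genes. The members were chosen with earlier results of these data known, so these counts and medians are descriptions and not a test of the set. Over all genes, 39 passed with all arrays, 7 and 11 without knockout replicates 1 and 2, and 0 without either control replicate; in each of these smaller fits the lone array of a group is assumed to vary like the other group's pair.

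**Figure D1:**
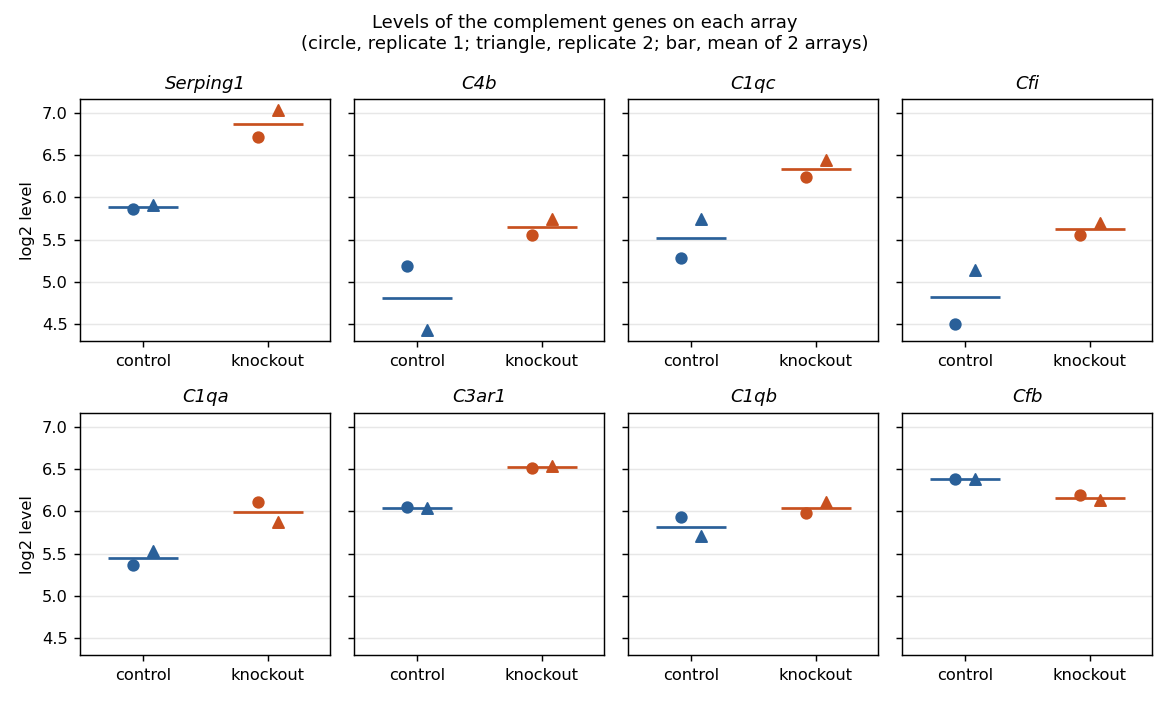
Log2 level (vertical axis, the same for all panels) of the 8 measured complement genes on each array, with control pools in blue and knockout pools in orange; circles are replicate 1, triangles replicate 2, and bars the mean of 2 arrays. The knockout arrays lie above the controls in 7 panels and below them for Cfb, and the 2 control arrays stand far apart for C4b and Cfi.

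The C1q chain genes were all higher in the knockout pools, C1qc most and C1qb least. C1qa, the A chain, had levels of 6.11 and 5.88 in the knockout pools against 5.37 and 5.53 in the controls. Its means were 5.99 ± 0.16 and 5.45 ± 0.11 (SD, n = 2 each), so that C1qa differed by 0.55 on the log2 scale (SE 0.12, limma adjusted p = 0.353) or 1.46-fold. Both knockout pools of C1qa were above both controls, and the difference was 0.75 in replicate 1 and 0.35 in replicate 2. C1qc, the C chain, had levels of 6.24 and 6.44 in the knockout pools against 5.29 and 5.74 in the controls. The change of C1qc was 0.82 (SE 0.17, adjusted p = 0.289), with a 95% interval from 0.41 to 1.24 and differences of 0.95 and 0.70 in the separate replicates. C1qb, the B chain, had levels of 5.98 and 6.11 against 5.93 and 5.71, so that the lower knockout pool and the higher control pool almost met. Its change was 0.22 (SE 0.12, adjusted p = 0.792), the interval ran from −0.07 to 0.52, and without control replicate 2 the change was 0.11.

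The chains of one protein thus differed in how far their probe sets moved. The change of C1qc exceeded that of C1qb by 0.60, with 0.90 in replicate 1 and 0.30 in replicate 2. For C1qa against C1qb the gap was 0.32, but it was 0.69 in replicate 1 and −0.05 in replicate 2, and the groups overlapped. C1qc and C1qa differed by 0.27, also with overlapping groups. Averaged over the chains, the C1q level was 6.11 and 6.14 in the knockout pools against 5.53 and 5.66 in the controls, a difference of 0.53 that was 0.58 in replicate 1 and 0.48 in replicate 2. Gaps between members are given as values and were not tested; the exact permutation test of a single value, 2 arrays against 2, cannot go below p = 0.333.

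In the RefSeq annotation of assembly GRCm38.p6 the genes C1qb, C1qc and C1qa lie side by side on chromosome 4. RefSeq promoter sequences of that build were at hand for 4 of the 9 listed genes, C1qb, C1qc, C3ar1 and C3, and entries for C1qa, C4b, Cfb, Serping1 and Cfi were missing. The 250 bases before the start are shown for C1qb and C1qc, the neighbours with the smallest and the largest change among the chains, and for C3ar1, the gene with the closest replicates. All lie on the minus strand, at chr4:136886201-136886450, chr4:136892915-136893164 and chr6:122856158-122856407, and are written 5′ to 3′ in the direction of the gene. Capitals mark the matches described after them.

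C1qb: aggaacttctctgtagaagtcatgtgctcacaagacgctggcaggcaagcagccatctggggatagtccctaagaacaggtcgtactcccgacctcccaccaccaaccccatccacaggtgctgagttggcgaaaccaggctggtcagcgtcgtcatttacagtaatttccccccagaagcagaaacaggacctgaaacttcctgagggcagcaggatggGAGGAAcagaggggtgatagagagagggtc
C1qc: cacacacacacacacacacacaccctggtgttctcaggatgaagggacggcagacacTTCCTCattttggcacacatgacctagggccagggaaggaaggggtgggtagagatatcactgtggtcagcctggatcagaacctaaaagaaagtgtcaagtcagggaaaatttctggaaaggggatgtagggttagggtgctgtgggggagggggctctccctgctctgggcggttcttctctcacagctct
C3ar1: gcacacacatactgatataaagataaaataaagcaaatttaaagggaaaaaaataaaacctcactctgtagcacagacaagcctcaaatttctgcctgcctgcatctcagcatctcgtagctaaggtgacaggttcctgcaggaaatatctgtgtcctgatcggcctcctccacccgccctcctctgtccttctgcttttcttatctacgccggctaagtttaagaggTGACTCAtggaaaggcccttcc

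The letters searched, on both strands, were GAGGAA, the core bound by the myeloid factor PU.1, TTCNNNGAA for STAT factors, TGANTCA for AP-1 and TTGCNNAA for C/EBP factors. C1qb held 1 match to GAGGAA, at −30 to −25 from the start, and C1qc held 1 on the opposite strand, at −193 to −188. These letters occur in 23.3% of all 32851 promoters searched over the same length. C3ar1 held 1 match to TGANTCA, at −22 to −16, found in 6.75% of all promoters. None of the 3 windows held the STAT letters (7.02% of all promoters) or the C/EBP letters (9.56%), and no matches overlapped. The window of C3, which matched no probe set, held 1 match to the C/EBP letters, at −45 to −38, and none to the others. A match is a run of letters and not a measured binding site.

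C4b, which encodes C4 and carries the classical cascade from C1 to C3, had a large difference and a wide spread. Its levels were 5.55 and 5.75 in the knockout pools against 5.19 and 4.43 in the controls. The knockout pools were close together and both above the controls, while the controls differed from each other by almost as much as the groups did. The means were 5.65 ± 0.14 and 4.81 ± 0.53 (SD, n = 2 each), and the change was 0.84 (SE 0.24, adjusted p = 0.530). The difference was 0.37 in replicate 1 and 1.32 in replicate 2, and without control replicate 2 it was 0.46. The 4.43 of control replicate 2 was a low level on that array, where the 10th percentile of all probe sets was 4.17. Low levels and background look alike.

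C4b has a near-identical relative, C4a, which encodes the sex-limited protein and lies on the same chromosome with 4 annotated genes between them. The C4a probe set had levels of 5.67 and 5.78 in the knockout pools against 5.65 and 5.27 in the controls, with control replicate 2 the lowest, as for C4b. Its change was 0.27 (SE 0.15, adjusted p = 0.808), which was 0.58 less than that of C4b. How far RNA of one gene binds the probes of the other was not tested, so the separate sizes are uncertain.

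Cfb, the protease of the alternative pathway, ran the other way. Its levels were 6.19 and 6.13 in the knockout pools against 6.39 and 6.39 in the controls. Both knockout pools were below both controls, and replicates lay close together in each group. The change was −0.22 (SE 0.10, adjusted p = 0.727), with an interval from −0.46 to 0.01 and differences of −0.19 and −0.25 in the separate replicates. Cfb lies on the same chromosome as C4b, with 11 annotated genes between them, and its change was 1.07 below that of C4b.

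Among the regulators, Serping1 had a large difference and a narrow spread in the controls. Its levels were 6.72 and 7.03 in the knockout pools against 5.87 and 5.91 in the controls. The groups were well apart, and the means were 6.87 ± 0.22 and 5.89 ± 0.03 (SD, n = 2 each). The change was 0.99 (SE 0.13, adjusted p = 0.0901), with a 95% interval from 0.67 to 1.30 and differences of 0.85 and 1.12 in replicates 1 and 2. Only 0.227% of all genes had a larger increase. Serping1 passed the threshold in 3 of 11 alternatives, with array medians set equal (adjusted p = 0.0388), without genes of low signal (0.0217) and with a variance trend (0.0167), and its adjusted p ran from 0.0167 to 0.615 over all of them.

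Cfi, the factor I gene, had levels of 5.55 and 5.70 in the knockout pools against 4.50 and 5.14 in the controls. The knockout pools again lay close together and the controls far apart, with means of 5.63 ± 0.10 and 4.82 ± 0.46 (SD, n = 2 each). The change of Cfi was 0.81 (SE 0.21, adjusted p = 0.469), at 1.05 in replicate 1 and 0.56 in replicate 2, and without control replicate 1 it was 0.48. As for C4b, the lowest control level was dim, at 4.50 in control replicate 1, where the 10th percentile of all probe sets was 4.05.

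C3ar1, the C3a receptor of myeloid cells, had the closest replicates of the genes that were higher. Its levels were 6.51 and 6.54 in the knockout pools against 6.05 and 6.04 in the controls. The change was 0.48 (SE 0.10, adjusted p = 0.271) or 1.40-fold, with 0.46 and 0.50 in the separate replicates. Its fold change was smaller than that of Serping1, C4b, C1qc, Cfi and C1qa, and over all alternatives it stayed between 0.47 and 0.50.

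**Figure D2:**
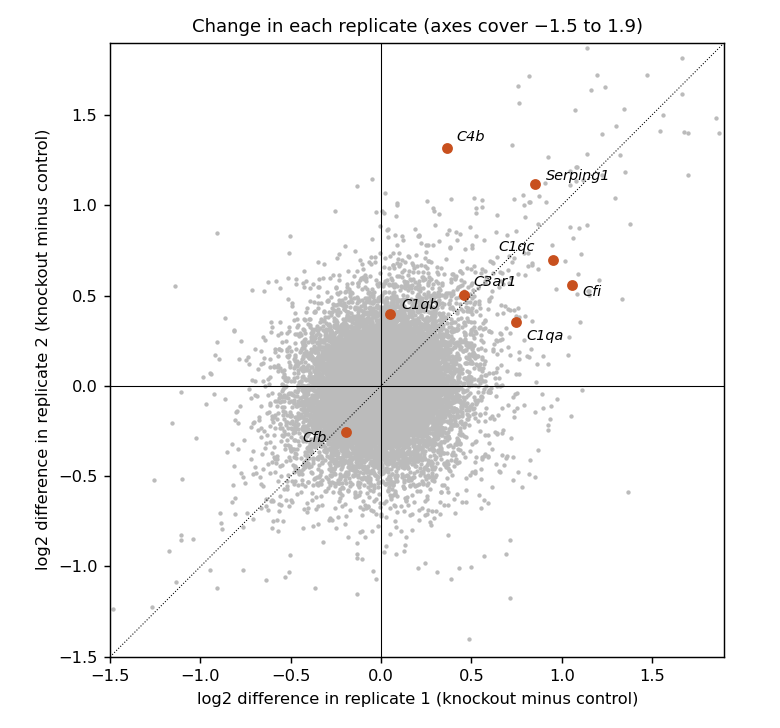
Log2 difference between knockout and control in replicate 1 (horizontal axis) and in replicate 2 (vertical axis) for all 19421 genes in grey and the 8 complement genes in orange; the dotted line marks equal differences, and 19 genes fall outside the axes. Serping1, C1qc, Cfi, C1qa and C3ar1 are above 0 in both, C4b lies far above the line (0.37 and 1.32), C1qb is near 0 in replicate 1 and Cfb is below 0 in both.

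The components and the regulators were compared as means over their genes on each array. The 4 measured components named in the contrast, C1qa, C1qb, C1qc and C4b, had a mean level of 5.97 and 6.04 in the knockout pools against 5.44 and 5.35 in the controls, a change of 0.61. The 2 regulators, Serping1 and Cfi, had 6.13 and 6.36 against 5.18 and 5.53, a change of 0.90. Both sets were thus higher in the knockout in both replicates. The change of the components was smaller by 0.29, by 0.43 in replicate 1 and by 0.15 in replicate 2, and the array values of this gap overlapped between the groups. Without control replicate 1 the gap was −0.07 and without control replicate 2 it was −0.50, so its size rests on single control arrays.

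For the C1q chains alone the gap to the regulators was −0.37 in replicate 1 and −0.36 in replicate 2, with no overlap between the groups. With Cfb counted among the components it was −0.45, also without overlap. The C1q chains changed by 0.31 less than C4b, but by 0.22 more in replicate 1 and by 0.84 less in replicate 2. The gap was −0.75 and 0.13 without control replicates 1 and 2, so it has no settled direction. In the order of change, from Serping1 through C4b, C1qc, Cfi, C1qa, C3ar1 and C1qb to Cfb, the 95% intervals of each gene and the next overlapped.

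The rest of the pathway had smaller differences in the median. Of 48 other complement genes 44 were measured, and the other 4 were not analysed here. With adjustment over all genes, 0 of the 44 were called higher and 0 lower (limma adjusted p under 0.05). At an unadjusted p under 0.05 there were 4 higher and 0 lower, where 3.71% of all genes were higher and 3.37% lower. Their knockout arrays lay above the controls in 11 genes and below in 3, where 17% and 18.4% of all genes did so, and their median change was 0.04. The 2 genes of this list with the largest differences, Cd59a and Clu, encode regulators.

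Clu encodes clusterin, a secreted chaperone that also blocks the terminal complex. It had levels of 9.82 and 9.94 in the knockout pools against 9.03 and 8.94 in the controls, and its change was 0.89 (SE 0.10, adjusted p = 0.0583). The groups were far apart, and Clu passed the threshold in 4 alternatives, after quantile normalization (0.0389), with array medians set equal (0.0346), without genes of low signal (0.0108) and with a variance trend (0.00223). Cd59a, a membrane protein that stops the assembly of the lytic pore, had levels of 7.02 and 7.87 against 6.12 and 6.75. Its change of 1.02 (SE 0.32, adjusted p = 0.593) came with a wide spread, and replicate 2 was higher in both groups. Leaving out 1 array moved it to between 0.59 (without knockout replicate 2) and 1.44 (without knockout replicate 1). Cd59b, its close relative, had 4.23 and 4.21 against 3.72 and 3.86, a change of 0.43 (SE 0.10, limma adjusted p = 0.392). These Cd59b levels were among the dimmest, where a low level and background look alike. Hybridisation shared between the 2 relatives was not tested. Of the 14 measured regulators other than Serping1 and Cfi, 7 had positive and 7 negative changes (median 0.0015), so Clu, Cd59a and Cd59b stood beside genes such as Cd46 and Cr1l, at 0.06 and −0.00083.

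None of the enzymes that follow C1q or lectin recognition was called. Their list, of classical and lectin pathway proteases and C2, had 7 measured genes with C2 counted. Of these C1s2, a copy of the C1s protease gene, had 0.44 (SE 0.17, adjusted p = 0.672). It was at 0.09 in replicate 1 and 0.78 in replicate 2, and without 1 array it ran from 0.26 to 0.62. The median of the 7 was 0.05. Hybridisation shared between C1s2 and its copy C1s1, at 0.10, was not tested. Both were among the dimmest genes, with array levels from 3.35 to 4.13 for C1s2 and from 3.38 to 3.64 for C1s1. Of 6 lectin pathway recognition genes, Mbl1, a mannose-binding lectin, had 0.22 (adjusted p = 0.750) and the collectin gene Colec10 0.19 (adjusted p = 0.815). The 7 terminal component genes, which build the membrane attack complex, had a median of −0.10, and C7 was at 0.12 (adjusted p = 0.899). Cfp, the properdin gene of the alternative pathway, was at −0.03, while Csmd2, of a family of membrane inhibitors, was at 0.06 (adjusted p = 0.964).

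Among 9 receptor genes the largest value was that of C5ar1, which encodes the receptor for C5a. Its levels were 4.91 and 5.31 in the knockout pools against 4.71 and 4.80 in the controls, and its change was 0.36 (SE 0.15, adjusted p = 0.722). Without knockout replicate 2 it was 0.16, below Vsig4, a receptor of tissue macrophages for C3 fragments. Vsig4 had 0.21 (adjusted p = 0.746) with all arrays and 0.24 without that one. Itgam and Itgb2, which together form complement receptor 3 of microglia, were at −0.04 each (adjusted p = 0.978 for both), with intervals from −0.27 to 0.19 and from −0.27 to 0.20. Itgam lay between 4.13 and 4.18 on the 4 arrays, among the dimmest genes, where a low level and background look alike. Vsig4 was dimmer, between 3.48 and 3.74.

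**Figure D3:**
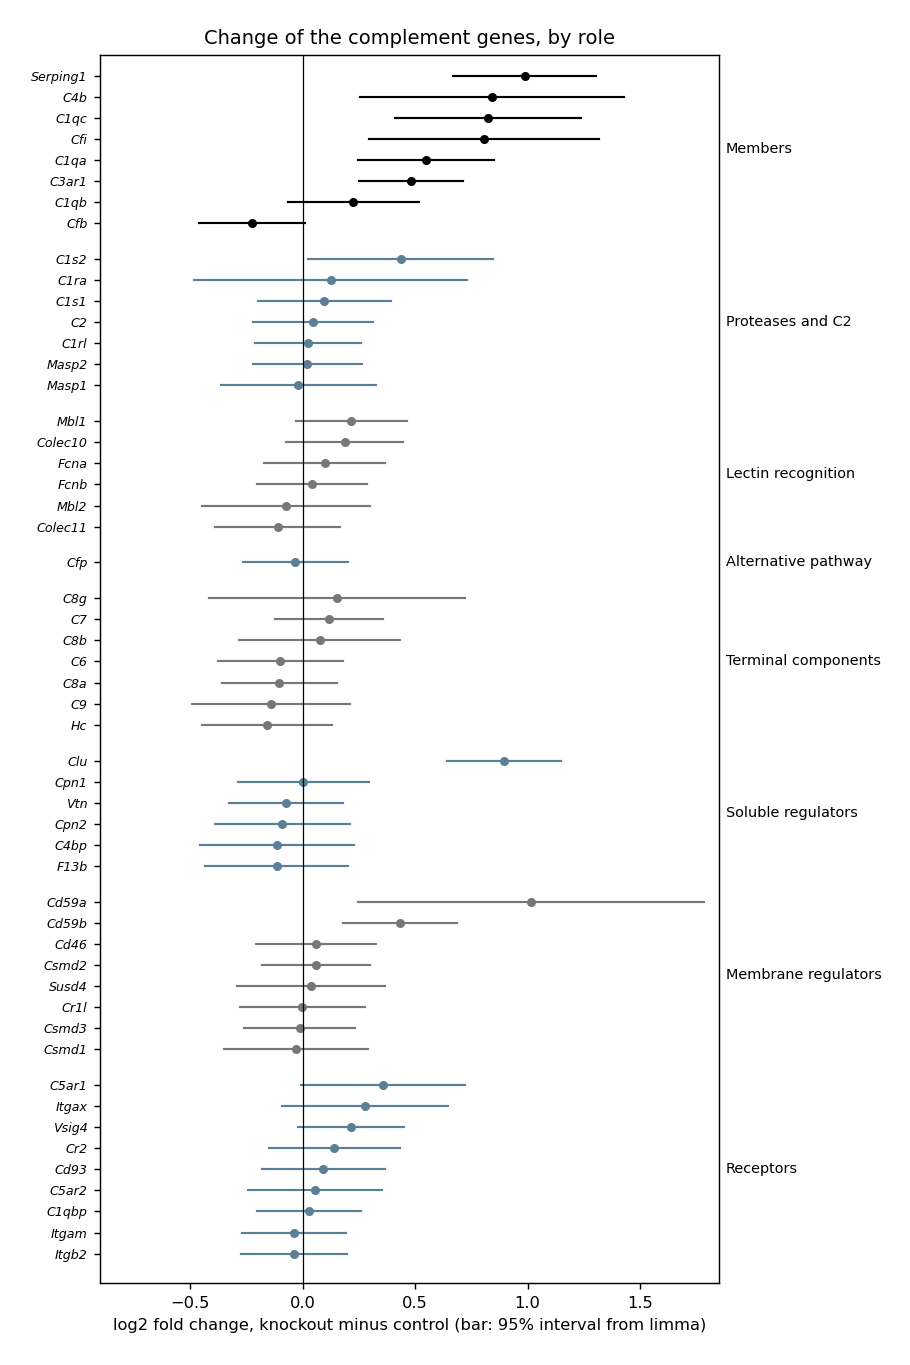
Log2 fold change, knockout minus control (horizontal axis), of the 8 measured complement genes and the 44 other measured genes of the pathway, grouped by role; points are limma estimates and bars 95% intervals. The intervals of 6 members and of C1s2, Clu, Cd59a and Cd59b lie above 0, and those of the terminal components all include 0.

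Microglia and reactive glia are cells that can make complement proteins, and their markers were followed on the same arrays. Among 16 measured microglia and macrophage markers 2 were called higher, Ctss and Tyrobp, by 1.53 and 1.12 (limma adjusted p = 0.0327 and 0.0347). Over all genes 0.139% were called higher. Of the 16 markers 13 had positive and 3 negative changes. The knockout arrays lay above the controls in 8 and below in 1, where 17% and 18.4% of all genes did so, and the median was 0.32. With the replicate block both calls were lost (adjusted p = 0.0539 for Ctss and 0.0729 for Tyrobp). The summed signal of the list, on the linear scale, was 1516 and 1475 in the knockout pools against 905 and 931 in the controls. Ctss and Tyrobp made up 77.5% of this difference, and the sum of the other 14 was 754 and 776 against 610 and 660. Its defining markers were uneven: Aif1, which encodes Iba1, had 0.96 (adjusted p = 0.0912), Cx3cr1, the fractalkine receptor, 0.50 (adjusted p = 0.469), and P2ry12 and Tmem119, of resident microglia, 0.23 and −0.40 (adjusted p = 0.852 and 0.403). The C1q chains changed by 0.53 on average and the 16 markers by 0.39. C3ar1 is a myeloid gene too.

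In the reactive glia list 4 of 14 markers were called higher and 0 lower, where 0.139% of all genes were called higher. The 4 were A2m at 1.44 (limma adjusted p = 0.0176), Cebpd at 1.40 (0.0402), Osmr at 1.30 (0.0294) and Stat3 at 1.08 (0.0271). With the replicate block none of the 4 was called (adjusted p from 0.0623 for A2m and Osmr to 0.119 for Cebpd), and with any 1 array left out none was called either. The median was 0.77, with 13 positive changes and 1 negative. In 13 of the 14 both knockout arrays lay above the controls, where 17% of all genes did so. The summed signal was 2257 and 2404 in the knockout pools against 1237 and 1115 in the controls, and 1587 and 1660 against 949 and 830 without the 4. Gfap, the filament protein of reactive glia, had 0.70 (adjusted p = 0.317). Osmr, Stat3 and Cebpd, which carry signals of the interleukin-6 family that are known to raise acute phase genes, are also the 3 called genes of a list of 17 measured inducers and transcription factors of complement. In that list 0 were called lower, and 12 genes had positive and 5 negative changes. Of the interleukin-6 family itself, the ligand genes Il6, Osm and Lif had −0.20, −0.18 and 0.28, and the receptor gene Il6st had 0.51. None of these was called (limma adjusted p = 0.900, 0.922, 0.625 and 0.289). Spi1, which encodes PU.1, had 0.13 (limma adjusted p = 0.929), Irf8 −0.05 and Ifng 0.03.

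Further marker lists had medians nearer to 0. The 13 Müller glia markers, which include Clu, had a median of 0.10. Their changes were uneven, with 10 positive and 3 negative, and ran from −0.37 to 0.89. The median was 0.09 for the 10 markers of monocytes, neutrophils and lymphocytes and 0.04 for the 11 vascular markers. For the 10 markers of retinal pigment epithelium it was −0.12. In each of these lists 0 were called. The summed signal of the pigment epithelium list was 1697 and 1740 in the knockout pools against 2146 and 1705 in the controls, with Rpe65, the retinoid isomerase of that tissue, at 7.31 in control replicate 1 and between 6.37 and 6.72 on the other arrays. No marker was at 0, because the values are log2 levels with a background. Whether the numbers of microglia or the state of the glia account for any of the complement differences was not tested.

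**Figure D4:**
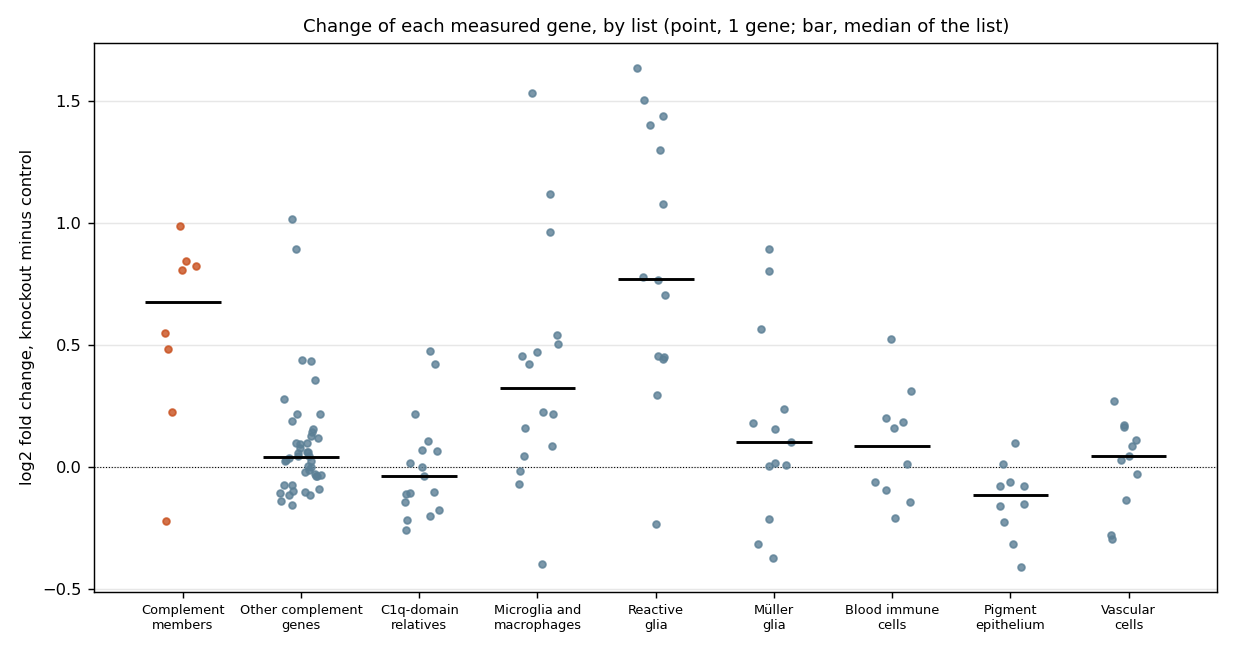
Log2 fold change, knockout minus control (vertical axis), of each measured gene in the complement set, the other complement genes, proteins with a C1q domain, and marker lists of 6 cell types; points are genes and bars list medians. The complement set (median 0.68) and reactive glia (0.77) lie highest, microglia and macrophages are at 0.32, and the other complement genes at 0.04. The set and the lists were chosen with earlier results of these data known.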

How the data were processed

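The authors deposited 1 table of log2 values for 21897 probe sets on 4 arrays, and the log2 scale was taken from the range of the values. Of tools, affy and limma appear in the submitters' processing notes, without version or role; which background correction and normalization were run is not stated there. The values were kept as deposited. Without detection values, low levels and background look alike, and the number of arrays limits the precision.

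The platform annotation gave 20877 probe sets 1 symbol, 175 several and 845 none; gene IDs were checked against RefSeq (36 not matched, 0 symbols changed). The single-symbol probe set with the highest mean stood for a gene, which left 19421 genes. Tests used limma 3.58.1 (R 4.3.3; lmFit, eBayes, two-sided, genotype only), with Benjamini-Hochberg adjustment over all genes and a threshold of 0.05. SE is the moderated standard error and intervals are 95% intervals from it. P-values rest on the spread of pools and not of single animals. The members and lists were chosen with earlier results of these data known. Genes named were all members and the 12 other complement genes with the largest change among those whose groups do not overlap. Also named were called genes of the marker and inducer lists, a few preset markers, and the genes nearest in pattern to a member. C4a, Xist, C1s1, Cd46, Cr1l, Cfp, Il6, Osm, Lif, Il6st, Spi1, Irf8, Ifng, Opn1sw, Opn1mw, Pde6h and Arr3 were added after their values were seen. So were C1ql3 and C1qtnf9 in the last section. Markers of erythrocytes (2 of 7 measured, median change −0.07), lens (9, −0.03) and astrocytes (5, 0.05) had 0 calls. Alternatives were other scalings, a filter on low signal, other variance models, the mean of probe sets, a replicate block and leaving out each array.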

Additional observations from a re-analysis of the deposited data

How the results depend on the processing

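All 8 complement genes kept their direction under every alternative that tested them, and the filter on low signal kept 3 of them. For most alternatives this could not come out otherwise. The filter, the variance models, the replicate block and the mean of probe sets leave the change of a member as it is. Leaving out 1 array cannot turn a direction where the groups do not overlap. Only quantile normalization and equal array medians could have done so. The call changed for Serping1 alone, in the 3 alternatives named with it, so the number of complement genes called was 1 with array medians set equal, with the dimmer 50% of genes left out and with a variance trend, and 0 otherwise. The number of other complement genes called was 1, Clu, in these 3 and after quantile normalization. Over all genes, 89 (58 higher, 31 lower) were called without genes of low signal, 128 (81 and 47) with a variance trend, and 8 (5 and 3) with the replicate block. Leaving out 1 array gave 0 to 11 calls (0 to 5 higher, 0 to 6 lower); without control replicates 1 and 2 limma called 0, with 1355 and 1328 genes at an unadjusted p under 0.05. The causes were not tested. Deviations of same-numbered arrays correlated at 0.24 across genes, and nothing in the labels pairs the pools; the replicate block gave Serping1 an adjusted p of 0.132 and C1qc 0.191. Of the 9 called genes named in the text, 1 (Gnat1) was called with the replicate block and without either knockout replicate, and 0 without either control replicate. The gap between components and regulators ran from −0.50 to −0.07 when 1 array was left out, against −0.29 with all arrays and a spread of 0.23 (SD) between arrays, and could not be computed without genes of low signal.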

Other observations

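Proteins outside the complement system share the C1q domain, among them the C1q-like synaptic organisers, the cerebellins and the adiponectin relatives. Of 18 such genes 17 were measured, 0 were called, and the knockout arrays lay above the controls in 2 and below in 3, shares no higher than the 17% and 18.4% over all genes. Their median change was −0.04, against 0.55 for the C1q chains. The largest values were those of C1qtnf9 at 0.48 (SE 0.19, limma adjusted p = 0.699) and C1ql3 at 0.42 (SE 0.11, adjusted p = 0.464). C1ql3 had levels of 9.36 and 9.32 in the knockout pools against 9.01 and 8.83 in the controls, so its groups did not overlap either.

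For the 5 members with a change of at least 0.5, the genes nearest in pattern were found by the distance between levels centred on each gene's mean over the 4 arrays, which is a description with no test. Nearest to C1qa were Lin7b (distance 0.05), Cx3cr1 (0.06) and Ifih1 (0.07), and nearest to C1qc were Adamts1 (0.10), Gfap (0.13) and Cfi (0.14). C1qc was in turn the nearest gene to Cfi, followed by Tnfsf9 (0.18) and Lrrc66 (0.18). Irs1 (0.12), Akr1b8 (0.14) and Tyrobp (0.16) lay nearest to Serping1, of which Akr1b8, an aldo-keto reductase gene, and Tyrobp were called, at 0.96 and 1.12 (adjusted p = 0.0402 and 0.0347; 0.119 and 0.0729 with the replicate block). C4b had no close match, with Btc at 0.25, Npy4r at 0.30 and Hk2 at 0.32.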
